A study of Mus musculus with 41 samples.

Results

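The change measured here was the first step of fracture healing in young mice: bone callus taken 5 days after a tibial fracture from mice aged 5 months, set against bone taken at day 0 from mice of the same age. The members were all arrays whose labels gave an age of 5 months and day 5 (n = 5) or day 0 (n = 5), which is 10 of the 41 arrays of the series. The other arrays were young mice at days 10 and 20 (n = 5 each) and old mice, aged 25 months, at days 5, 10 and 20 (n = 5 each) and at day 0 (n = 6). All mice came from the NIH aged rodent colony; the sources used here give neither strain nor sex.

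Each leg was stabilised with a pin inside the tibia and broken with a blunt guillotine, and both tibias of a mouse were fractured. Each group was made of different mice, so replicate numbers name mice and do not pair them. RNA was taken from either whole bone or the callus alone, and which was used is not given for single arrays. The day 0 arrays are also labelled as callus, although no callus exists at day 0, so the kind of tissue taken and the healing step cannot be told apart. Total RNA was amplified from poly(T) and random primers and hybridised to Affymetrix Mouse Gene 1.0 ST arrays, which read each gene as a log2 intensity; 1 unit is a change of 2-fold.

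A broken bone heals by passing through overlapping stages. Blood clots at the break, and neutrophils and then macrophages enter. Cells of the periosteum and nearby connective tissue multiply and lay down a fibrous matrix, part of this matrix turns into cartilage, and bone replaces the cartilage. The unbroken tibia holds marrow, where red cells, granulocytes, platelets and B cells are made, inside a shell of mineralised matrix kept by osteocytes. In bulk tissue of this kind, fewer cells of a type and less RNA per cell cannot be told apart.

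Of 19938 genes tested, 7229 (36.3%) passed limma's moderated test at an adjusted p under 0.05, counted below as called. Of these, 3987 (20.0%) rose by day 5 and 3242 (16.3%) fell. The balance turned with the scaling of the arrays: 3543 were higher and 3613 lower after quantile normalization, and 3571 higher and 4144 lower after centring each array on its median. The shares on the deposited scale are the background for every count below, and the median change of all genes was -0.03. All 5 day 5 arrays lay above all 5 day 0 arrays for 2704 genes (13.6%), and all lay below for 1847 (9.26%), 4551 genes (22.8%) in all. Among called genes, 1015 rose and 684 fell by at least 2-fold, and 10 rose and 14 fell by at least 16-fold. The authors' deposited table, which holds the authors' own comparison of the same groups, had 9246 of its 28815 probe sets at a step-up adjusted p under 0.05.

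The 10 arrays separated by day, and some arrays stood apart within a day. The first principal component held 67.9% of the variance and put all day 5 arrays on one side and all day 0 arrays on the other. Correlations between arrays over all genes were 0.982 to 0.994 within day 5, 0.962 to 0.994 within day 0, and 0.916 to 0.953 between the days. The median gene had an SD of 0.152 at day 5 and 0.193 at day 0. Day 5 replicate 5 differed from the other day 5 arrays: the mean level of the chondrocyte list was 7.16 there and 5.62 to 5.86 on the other 4. Day 0 replicates 2 and 5 had lower means of the red-cell, neutrophil, B-cell, T-cell and platelet lists than the other day 0 arrays, and higher means of the mature muscle list, with list means of 10.62 and 10.80 there against 9.57 to 10.30 elsewhere at day 0. The first 4 day 5 mice have names that start with H, while at day 0 only replicates 4 and 5 do; what the letter stands for is not given. With these 3 arrays that stood apart, day 5 replicate 5 and day 0 replicates 2 and 5, left out, 6157 genes were called, 3320 higher and 2837 lower. With a block for whether the name starts with a letter or with a digit, 6250 were called. Day 5 replicate 5, whose name starts with P, fell in the same block as the H names. Within the names that start with H, 4 arrays against 2, 5160 were called.

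**Figure D1:**
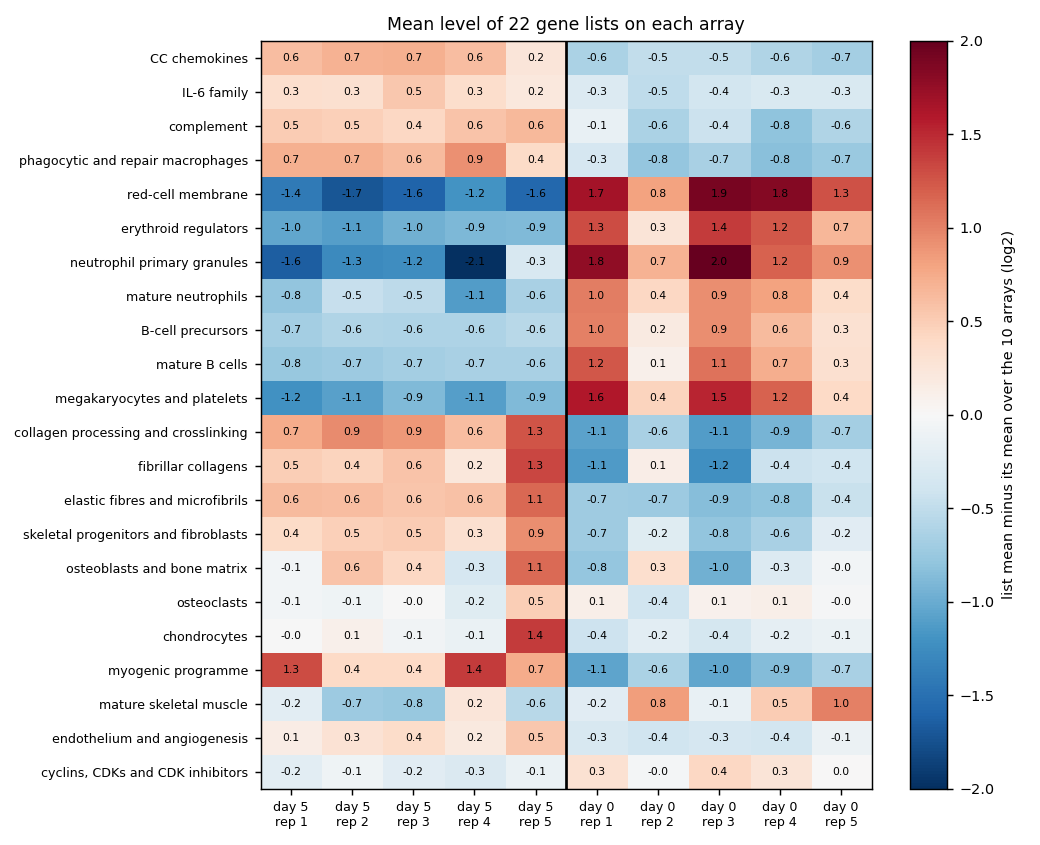
Mean log2 level of 22 gene lists on each array of young mice, minus that list's mean over the 10 arrays; day 5 arrays are left of the line and day 0 arrays right of it. Red cells mark a level above the list's mean and blue cells one below it; the chondrocyte row stands out on day 5 replicate 5 (7.16 against at most 5.86 on the other day 5 arrays), and the red-cell and platelet rows are palest on day 0 replicates 2 and 5.

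The tissue held markers of bone, and also of skeletal muscle: Acta1 was at 11.52 at day 5 and 11.85 at day 0. At day 5 the osteoblast gene Ibsp had a level of 11.66 ± 0.63 and at day 0 one of 9.88 ± 0.63 (SD, n = 5 each). The osteocyte gene Dmp1 was at 7.93 at day 5 and 7.97 at day 0. Of the other osteocyte markers, Sost (-0.56) and Mepe (-0.75) were called lower and Phex (-0.76) was not called. The mean of 9 epidermal genes was 4.31 to 4.42 on day 5 arrays and 4.09 to 4.80 on day 0 arrays, and none of the 9 was called. The table carries no detection call, so a low level cannot be read as absence.

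Chemokine ligands, the secreted proteins that draw white cells into tissue, held the gene with the largest rise. Of 34 ligands measured, 15 rose and 2 fell, with a median change of 0.33. In RefSeq, 6 of them follow each other on chromosome 11 in the order Ccl2, Ccl7, Ccl11, Ccl12, Ccl8 and Ccl1, and their neighbours did not move alike. Ccl8, a monocyte attractant, measured 10.22, 10.24, 10.26, 9.72 and 9.95 on the 5 day 5 arrays, against 4.18, 5.20, 4.90, 3.65 and 3.997 at day 0. All day 5 values lay more than 4 units above the highest day 0 value. The change was 5.69 ± 0.33 (SE), or 51.7-fold, with an adjusted p of 7.3e-15 by limma.

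Ccl2, Ccl7 and Ccl12, which also attract monocytes, rose by 3.998 ± 0.34, 4.52 ± 0.39 and 4.004 ± 0.25. Ccl2 had 9.93, 9.95, 10.19, 10.11 and 8.39 at day 5, against 4.92, 6.96, 5.75, 5.27 and 5.67 at day 0. Day 5 replicate 5 was the lowest day 5 array for Ccl2, Ccl7 and Ccl12, and yet above every day 0 array for each. Between them in gene order, Ccl11, which attracts eosinophils, changed by 0.24 ± 0.27 and was not called (adjusted p = 0.54, limma), and its arrays overlapped between the days. Ccl1, at the end of the row, changed by -0.19 ± 0.08 and was not called (adjusted p = 0.0557, limma), but was called when day 5 replicate 1 (-0.23) or day 0 replicate 3 (-0.22) was left out or the arrays were centred on their medians (-0.23).

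Among the CXC ligands, the neutrophil attractants Cxcl5, Cxcl2, Cxcl1 and Cxcl3 rose by 4.09, 2.37, 1.37 and 0.93, and the interferon-induced Cxcl10 by 2.43. Cxcl12, which holds blood stem cells in marrow, changed by -0.37 and was not called (adjusted p = 0.065, limma). Without any one of day 0 replicates 2, 3 and 5 it was called lower (-0.43 to -0.45), as it was after quantile normalization (-0.48) or centring (-0.41). Of 22 receptors measured, 1 rose and 8 fell, with a median of -0.22. The one that rose was Ackr3 (1.23), a receptor that removes Cxcl12 without the usual signal. Ccr2, the receptor for Ccl2, Ccl7 and Ccl12, changed by 0.28 and was not called, but was called higher within the names that start with H (0.85). Cxcr2, the receptor of neutrophils for Cxcl5, had 8.04, 8.88, 9.20, 7.75 and 7.69 at day 5, against 10.54, 9.40, 10.14, 10.18 and 9.68 at day 0. It fell by 1.67 on the log2 scale with no overlap between the days.

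The cytokines of the IL-6 family signal through a shared receptor chain, Il6st, to the factor Stat3. Of 13 measured members, 7 rose and 2 fell, with a median of 0.61, and 1 fell when any single array other than day 5 replicate 5 and day 0 replicate 2 was left out. Il6 itself had 7.41, 7.16, 8.09, 7.09 and 5.33 at day 5, against 3.74, 3.68, 3.68, 3.72 and 3.29 at day 0, a rise of 3.39 ± 0.44 (adjusted p = 8.0e-08, limma). Day 5 replicate 5 was again the lowest of its day. Other members that rose were the ligands Lif (1.16) and Il11 (0.82), the receptor chains Osmr (2.24) and Il6st (1.17), the factor Stat3 (0.61) and the feedback inhibitor Socs3 (1.19). Oncostatin M, Osm, a ligand made by white cells, fell by 0.79.

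Promoters are shown for 2 genes of this inflammatory group, Il6 and C3ar1, the receptor of a complement fragment, because the same short motif lies in both. Each is the RefSeq window of GRCm38.p6 from 250 bases before to 50 bases after the start of the gene, with TGANTCA, the motif of AP-1 factors, in capitals. Il6 lies at chr5:30012864-30013163 on the plus strand and C3ar1 at chr6:122856108-122856407 on the minus strand.
Il6: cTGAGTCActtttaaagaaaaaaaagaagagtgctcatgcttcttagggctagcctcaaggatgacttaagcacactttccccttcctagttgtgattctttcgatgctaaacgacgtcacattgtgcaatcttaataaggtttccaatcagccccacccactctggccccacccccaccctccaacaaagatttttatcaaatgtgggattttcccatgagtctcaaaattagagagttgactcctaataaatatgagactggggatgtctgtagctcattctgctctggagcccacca
C3ar1: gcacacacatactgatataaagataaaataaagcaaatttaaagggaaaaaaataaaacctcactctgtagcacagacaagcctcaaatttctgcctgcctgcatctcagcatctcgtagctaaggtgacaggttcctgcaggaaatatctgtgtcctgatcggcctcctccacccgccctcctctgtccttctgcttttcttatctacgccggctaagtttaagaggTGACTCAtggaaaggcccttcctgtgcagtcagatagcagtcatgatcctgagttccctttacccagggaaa
Of 36 chemokine ligands and IL-6 family members with a window in the table, 9 (25.0%) held TGANTCA on either strand, against 8.08% of the 15614 tested genes with a window. The share was 7.08% among all genes called higher and 7.28% among those called lower. A match describes these letters and shows no binding.

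Other early cytokines moved less, or downward. In the IL-1 family 2 of 12 rose and 3 fell. Those that rose were Il33 (2.56) and Il18 (1.62), cytokines that cells can store and release on injury, while Il1a fell by 1.28 and Il1b changed by -0.34 without being called. Tnf fell by 0.65, a call that was lost when only the groups compared were fitted and within the names that start with H (-0.76). In the TNF family 8 of 24 rose and 7 fell, and the median, -0.03, changed sign with the scaling of the arrays (0.00 after quantile normalization and -0.08 after centring each array on its median, and 0.02 without day 5 replicate 5). Members that rose included the injury-induced receptor Tnfrsf12a (1.497), the osteoclast receptor Tnfrsf11a (1.01) and its ligand Tnfsf11 (0.73). Members that fell included Ltb (-1.51), Cd27 (-1.05) and Tnfrsf13c (-0.95), genes of lymphocytes, and Cd27 was not called within the names that start with H (-0.83).

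Enzymes of prostaglandin and leukotriene synthesis changed in both directions. Ptgs2, the inducible cyclooxygenase, rose by 2.85 ± 0.34, and Ptges, which makes prostaglandin E2, by 1.18. Alox5, Alox12, Alox15 and Lta4h, of the lipoxygenase branch, fell by 1.71, 2.76, 1.29 and 1.16. In this list of 22 genes, 6 rose and 7 fell.

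Acute phase proteins are mostly made by the liver. Of 18 measured, 2 rose and 3 fell, near or below the shares over all genes, and the sign of the median, -0.06, turned under quantile normalization (0.01). The 2 that rose are made outside the liver too. Saa3 had 8.45, 9.56, 9.39, 8.32 and 8.32 at day 5, against 4.65, 4.93, 4.51, 4.60 and 4.66 at day 0, and rose by 4.14 ± 0.34. Serpina3n, a serine protease inhibitor, rose by 3.10. Lcn2, which neutrophils store in granules, fell by 2.50.

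Genes of macrophages rose as a group. Of 23 genes of phagocytic and repair macrophages, 19 rose and 2 fell (1 without day 5 replicate 2 or 5 or day 0 replicate 1), with a median of 1.71. The pan-macrophage genes Csf1r, Adgre1 and Cd68 rose by 1.62, 2.06 and 1.96, and the haemoglobin receptor Cd163 by 1.79. Arg1, an arginine-degrading enzyme of repair macrophages, had 7.78, 8.54, 8.44, 7.88 and 6.95 at day 5, against 4.61, 4.58, 4.71, 4.80 and 4.80 at day 0, a rise of 3.22 ± 0.28. The day 0 values lay within 0.3 of each other. Retnla, another gene used to mark alternatively activated macrophages, went the other way. It had 3.54, 3.53, 3.36, 3.32 and 3.21 at day 5, against 5.82, 6.32, 5.44, 4.97 and 6.95 at day 0, and fell by 2.50 ± 0.35 with no overlap. Of 10 inflammatory macrophage genes, Cd86 (0.83) and Nos2 (0.40) rose and Tnf and Il12a (-1.16) fell, near the shares over all genes. Within the names that start with H, neither Nos2 (0.33) nor Tnf (-0.76) was called.

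Complement, the plasma proteins that tag cells for removal, had 11 of 17 genes higher and 1 lower (2 without day 5 replicate 5), with a median of 0.68. C3ar1, the receptor for a fragment of C3, had 9.74, 9.98, 9.89, 10.08 and 9.28 at day 5, against 6.405, 6.31, 6.202, 5.93 and 5.43 at day 0, and rose by 3.74 ± 0.23. The 3 chains of C1q, C1qa, C1qb and C1qc, rose by 2.87, 2.49 and 1.99. Cd55, which protects cells from complement, fell by 0.90. Pattern receptors rose too, in 10 of 19 cases with none lower (1 without day 5 replicate 4 or day 0 replicate 2); Cd14, the co-receptor for endotoxin, rose by 2.84 and Tlr1 by 1.73.

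The Ms4a family, membrane proteins whose members mark different white cells, divided by cell type. Ms4a6d, Ms4a7, Ms4a4a and Ms4a6b, known from macrophages, rose by 4.11, 3.25, 3.17 and 2.37. Ms4a1 (CD20 of B cells), Ms4a3 of granulocyte precursors and Ms4a2 (a chain of the IgE receptor) fell by 2.39, 3.03 and 0.72. Of the 15 members, 6 rose and 4 fell. The myeloid C-type lectins divided as well, 5 of 15 higher and 6 lower, with Clec4n (3.43) and Mrc1 (2.36) the largest rises and Clec12a (-1.45) the largest fall.

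Handling of haem and iron changed at single steps. Hmox1, which breaks haem down, had 11.21, 11.60, 11.54, 11.30 and 11.17 at day 5, against 10.62, 8.65, 9.65, 8.78 and 9.19 at day 0, a rise of 1.99 ± 0.25. The iron exporter Slc40a1 had 6.56, 6.19, 6.27, 6.18 and 6.99 at day 5, against 8.78, 8.71, 8.27, 8.002 and 7.57 at day 0, and fell by 1.83 ± 0.21. Neither gene overlapped between the days. Steap4, a metal reductase, rose by 1.70 and the transferrin receptor Tfrc, abundant on red-cell precursors, fell by 1.95. Of 16 genes of this list, 7 rose and 4 fell, and 2 fell when day 5 replicate 4 or day 0 replicate 1, 3 or 4 was left out.

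The lists of red-cell genes fell almost whole. Of 44 genes in 3 lists, 43 fell and none rose, with a median of -1.98, and 39 did not overlap between the days. All 17 genes of the red-cell membrane and all 14 erythroid regulators fell. In the list of globins and haem synthesis, 12 of 13 measured genes fell, and 8 more genes of that list had no probe set tied to a single gene. Rhag, the ammonium channel of the Rh complex, had 5.17, 4.03, 4.33, 5.07 and 4.68 at day 5, against 9.80, 9.24, 10.13, 9.80 and 9.09 at day 0. It fell by 4.96 ± 0.67, or 31.0-fold (adjusted p = 1.7e-07, limma), the largest fall among the genes called. Day 0 replicates 2 and 5, the arrays with the lowest red-cell list means, had its lowest day 0 values.

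Alas2, which starts haem synthesis in red-cell precursors, had 6.88, 6.69, 6.29, 6.99 and 7.28 at day 5, against 10.83, 9.87, 11.05, 10.83 and 10.46 at day 0, and fell by 3.78 ± 0.38. The blood group gene Kel fell by 4.45 ± 0.53, band 3 (Slc4a1) by 4.33 and the membrane protein Epb42 by 4.08. The factors Klf1 and Gata1, which switch on globin and other red-cell genes, fell by 2.77 and 2.38. The carbonic anhydrases Car1 and Car2 fell by 4.91 and 4.49, the Rh gene Rhd fell by 4.43, Cldn13, a claudin, fell by 4.64, and Hemgn and Trim10, both of red-cell precursors, by 4.06 and 4.05.

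The promoters of Alas2 and Kel are shown because both hold AGATAA, the motif of GATA factors. Whether a GATA factor acts on these genes was not tested. Capitals mark the motif or its reverse, TTATCT. Alas2 lies at chrX:150547167-150547466 on the plus strand and Kel at chr6:41704276-41704575 on the minus strand, both RefSeq GRCm38.p6.
Alas2: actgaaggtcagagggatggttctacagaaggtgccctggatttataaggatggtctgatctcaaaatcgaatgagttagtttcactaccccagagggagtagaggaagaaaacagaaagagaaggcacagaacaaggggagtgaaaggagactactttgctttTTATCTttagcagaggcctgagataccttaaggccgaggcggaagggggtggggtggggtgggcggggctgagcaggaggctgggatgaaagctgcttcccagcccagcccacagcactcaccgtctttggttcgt
Kel: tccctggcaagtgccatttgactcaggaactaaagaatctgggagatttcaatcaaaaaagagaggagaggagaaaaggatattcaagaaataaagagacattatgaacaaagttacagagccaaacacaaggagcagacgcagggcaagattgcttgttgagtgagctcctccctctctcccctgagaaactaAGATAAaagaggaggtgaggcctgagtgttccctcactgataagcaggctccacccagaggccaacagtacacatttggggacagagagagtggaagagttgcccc
Of 33 red-cell genes with a window, 9 (27.3%) held AGATAA on either strand, against 10.8% of all tested genes with a window. The share was 6.95% of genes called higher and 11.3% of those called lower.

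A pair of miRNA genes of red-cell precursors fell with them. Their mature sequences, from RefSeq GRCm38.p6, are shown with the seed (bases 2 to 8) in capitals, because these 7 bases choose their targets and differ among the 3. Both genes lie on the plus strand of chromosome 11, miR-144-5p at chr11:78073010-78073032, miR-144-3p at chr11:78073047-78073066 and miR-451a at chr11:78073186-78073207.
mmu-miR-144-5p: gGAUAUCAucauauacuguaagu
mmu-miR-144-3p: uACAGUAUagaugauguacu
mmu-miR-451a: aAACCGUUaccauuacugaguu
Mir451a had 3.58, 3.74, 3.56, 3.53 and 3.66 at day 5, against 4.77, 4.63, 5.31, 4.34 and 4.56 at day 0, and fell by 1.11 ± 0.18. Mir144 fell by 0.65 ± 0.17, and was not called within the names that start with H (-0.62). These 2 were chosen after their values were seen. Of 296 miRNA genes with a probe set, 36 fell and none rose (limma); the array reads precursor and host RNA, not the mature strand.

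Granulocyte genes fell as well, with the genes of precursors among them. All 6 genes of the primary granules, which are made early, fell, with a median of -2.95, and 11 of 12 of the secondary granules fell (-2.18). Of 13 genes of mature neutrophils, 11 fell (-1.22) and none rose (1 without day 5 replicate 5). Ly6g, the surface marker of mouse neutrophils, had 5.74, 6.32, 5.71, 5.45 and 7.67 at day 5, against 10.44, 10.99, 10.87, 10.54 and 9.81 at day 0, a fall of 4.35 ± 0.53. Elane and Mpo, enzymes of primary granules, changed by -3.07 and -3.06. Day 5 replicate 5 had the highest day 5 level of Ly6g, Elane and Mpo (7.67, 7.95 and 8.999). S100a8 and S100a9, the most abundant proteins of the neutrophil cytosol, fell less, by 0.57 and 0.80, and S100a8 was not called without day 5 replicate 4 (-0.47).

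Among other granulocytes, 12 of 17 genes of eosinophils, basophils and mast cells fell, with a median of -0.72. The basophil proteases Mcpt8 and Prss34 fell by 3.50 and 2.65, and the eosinophil granule proteins Prg2 and Epx by 3.38 and 2.13. The 2 genes that rose, Mcpt4 (1.19) and Cma1 (0.40), are chymases of connective-tissue mast cells; Cma1 was not called without day 5 replicate 3 (0.31) or when only the groups compared were fitted. Mcpt4 had 6.96, 6.67, 6.54, 5.57 and 7.13 at day 5, against 5.41, 5.43, 5.42, 5.13 and 5.51 at day 0, so that its lowest day 5 array was just above the highest day 0 array.

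B-lineage genes fell in 29 of 34 cases, with a median of -1.21. Vpreb1, part of the surrogate light chain of precursor B cells, had 4.73, 5.09, 5.24, 3.97 and 5.15 at day 5, against 8.93, 8.84, 8.90, 9.84 and 8.65 at day 0. It fell by 4.20 ± 0.34, or 18.4-fold (adjusted p = 2.3e-12, limma). The recombinase Rag1 fell by 1.89, the B-cell receptor chains Cd79a and Cd79b by 2.44 and 2.67, and Jchain of plasma cells by 4.08. The 3 members that rose, Sox4 (0.67), Arpp21 (0.51) and Ebf1 (0.50), are also expressed outside B cells, and Ebf1 was not called without day 0 replicate 2 (0.38). Within the names that start with H, Sox4 (0.42) and Arpp21 (0.57) were not called. Of 24 genes of T and NK cells, 9 fell and none rose; Nkg7, a granule protein, fell by 3.25 and Cd3d fell by 1.38, while Cd8a (-0.54) was not called.

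Platelet genes fell in 11 of 12 cases, with a median of -2.22, and the one exception was a chemokine. Gp5, a chain of the platelet receptor for von Willebrand factor, fell by 3.31 and Itga2b fell by 1.84. Ppbp, a platelet chemokine, had 8.54, 8.95, 10.10, 8.62 and 9.27 at day 5, against 12.42, 11.94, 12.35, 12.17 and 11.57 at day 0, and fell by 2.99 ± 0.58. Pf4, the platelet chemokine most often used as a marker, had 11.22, 11.58, 11.61, 11.55 and 10.52 at day 5, against 11.43, 10.70, 11.39, 11.16 and 10.52 at day 0. Its groups overlapped almost fully and its change of 0.26 ± 0.29 was not called (adjusted p = 0.52, limma), but was called within the names that start with H (0.65). Of 13 genes of the marrow stroma 3 rose and 2 fell, near the shares over all genes. The median, 0.02, changed sign with the scaling (-0.07 after quantile normalization and -0.02 after centring). Those that rose were the growth factor Csf1 (1.25), Jag1 (0.64) and Ebf1 (0.50, and 0.38 without day 0 replicate 2, not called). The leptin receptor Lepr, which marks stroma around marrow vessels, fell by 1.75 and Esm1, of endothelial cells, by 1.35. Jag1 was not called within the names that start with H (0.44).

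**Figure D2:**
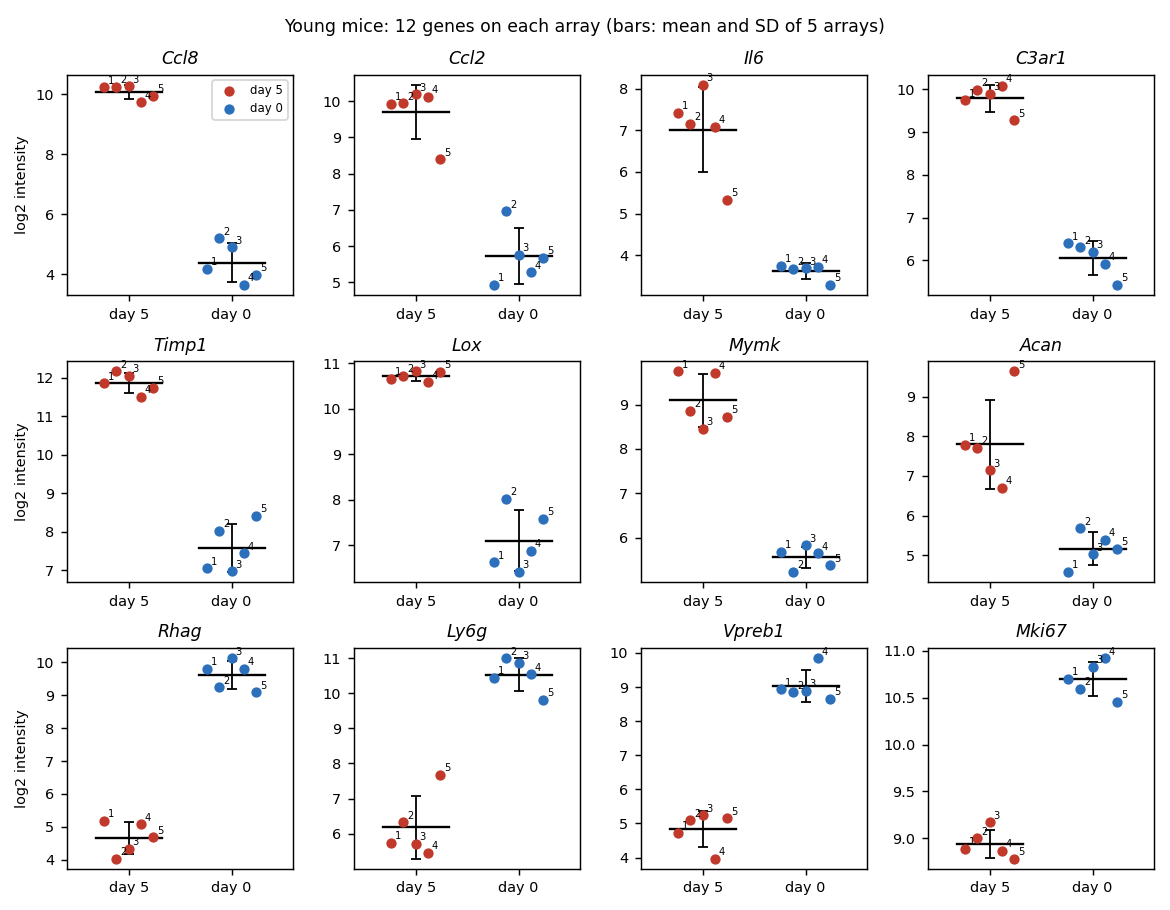
Log2 intensity of 12 genes on each array of young mice, day 5 on the left and day 0 on the right of each panel; the number beside a point is its replicate, and lines mark the mean and SD of 5 arrays. No gene shown overlaps between the days; Ccl2 and Il6 have their lowest day 5 array, and Acan its highest, in replicate 5.

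Matrix genes rose more often than they fell, and the machinery that processes collagen rose almost without exception. Of 43 collagen genes 18 rose and none fell, although 2 of the network and other collagens were called lower without day 0 replicate 3. After quantile normalization 1 fibril-associated collagen and 1 of the network and other collagens were called lower. After centring each array on its median these counts were 1 and 3. The fibril-forming collagens Col3a1 and Col5a2 rose by 2.72 and 2.63, and the 3 chains of collagen VI, Col6a1, Col6a2 and Col6a3, by 2.34, 2.11 and 2.70. Col1a1, the main collagen of bone, rose by 1.44 ± 0.34 with overlapping arrays: it had 11.13, 11.28, 11.40, 10.82 and 11.86 at day 5, against 9.04, 11.06, 8.71, 10.26 and 10.24 at day 0. Col7a1, which anchors the epidermis of skin, was not called (-0.11).

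Of 31 genes that fold, modify, secrete or cross-link collagen, 30 rose and none fell, with a median of 1.95, and 27 were called higher without the 3 arrays that stood apart. Lox, which cross-links collagen and elastin, had 10.66, 10.73, 10.82, 10.59 and 10.81 at day 5, against 6.63, 8.02, 6.42, 6.88 and 7.58 at day 0, a rise of 3.62 ± 0.26, or 12.3-fold. Its day 5 arrays lay within 0.3 of each other, and its day 0 arrays spread over more than 1 unit. Kdelr3, which returns chaperones to the endoplasmic reticulum, had 8.77, 9.22, 8.95, 8.44 and 9.45 at day 5, against 4.83, 6.398, 4.75, 5.25 and 5.10 at day 0, and rose by 3.70 ± 0.29. The lysyl hydroxylase Plod2 (2.80), the prolyl 3-hydroxylase P3h1 (2.79), the collagen chaperone Serpinh1 (1.98) and the procollagen protease Bmp1 (2.05) rose as well. The only member not called was P3h2 (0.14).

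General chaperones of the endoplasmic reticulum rose too, by smaller steps. Of 24 genes 18 rose, with a median of 0.62, among them the disulphide isomerase Pdia5 (2.36), the translocon channel Sec61a1 (1.55) and the chaperone Hspa5 (0.91). The stress factor Ddit3, induced when folding fails, fell by 0.68 ± 0.14.

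Proteins of the provisional matrix made up another large group. Of 27 matricellular and hyaluronan genes, 23 rose and none fell, with a median of 1.63. Tnfaip6, which binds hyaluronan during inflammation, had 9.06, 9.25, 9.61, 8.39 and 7.77 at day 5, against 4.03, 5.12, 4.51, 4.27 and 5.09 at day 0, and rose by 4.21 ± 0.32. The large proteoglycan Vcan, which also binds hyaluronan, rose by 3.89 ± 0.27, and the hyaluronan synthase Has2 by 3.19. Cthrc1 (3.74), Thbs2 (2.52), Fn1 (2.17), Tnc (1.92) and Postn (1.9), secreted proteins of wounds and connective tissue, rose too. Of 15 elastic fibre genes 13 rose, among them Mfap5 (3.22) and Fbln2 (3.10).

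Proteases that cut matrix changed in both directions. Of 30 metalloproteinases and relatives, 16 rose and 4 fell. Mmp14, Mmp2 and Mmp3, enzymes of connective-tissue cells, rose by 2.18, 1.99 and 2.32, and Adam12 by 2.55. Mmp8, Mmp25 and Mmp9, which neutrophils store, fell by 3.41, 1.97 and 0.97. Mmp9 was not called without any one of day 5 replicates 1 to 4 or day 0 replicates 1, 3, 4 and 5 (-0.77 to -0.998), and the falls in the list then numbered as few as 2. Mmp13, the collagenase of growing cartilage and bone, changed by 0.70 and was not called (adjusted p = 0.0518, limma), but was called without day 5 replicate 4 (0.92) or day 0 replicate 5 (0.91). The inhibitor Timp1 had 11.86, 12.16, 12.04, 11.50 and 11.74 at day 5, against 7.05, 8.03, 6.97, 7.44 and 8.41 at day 0, and rose by 4.28 ± 0.29, or 19.4-fold (adjusted p = 4.3e-14, limma). Timp2 rose by 1.24 and Timp4 fell by 0.77, a call lost without the 3 arrays that stood apart (-0.58). Of 16 protease inhibitors in all, 6 rose and 3 fell (6 to 7 and 3 to 4 without single arrays), with a median of 0.06. The plasminogen activators Plau and Plat rose by 2.22 and 1.76, within a list of 18 coagulation genes of which 10 rose and 3 fell.

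Genes of connective-tissue progenitors rose in 18 of 24 cases and fell in 2, with a median of 1.20. Pdgfra, the receptor that marks such cells, rose by 2.25 ± 0.18, Acta2, the actin of myofibroblasts, by 2.92, Thy1 by 2.30 and the limb mesenchyme factor Prrx1 by 1.41. Grem1, a BMP antagonist made by skeletal stem cells, and the peptidase Dpp4 fell by 0.85 and 0.77, and Dpp4 was not called without any one of day 5 replicates 1, 2 and 4 or day 0 replicates 1 and 3 (-0.57 to -0.78), nor within the names that start with H (-0.58).

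Among ligands of the TGF-beta superfamily, which drive matrix synthesis and skeletal differentiation, 5 of 18 rose and 1 fell. Tgfb3 had 8.12, 8.20, 8.005, 8.13 and 8.68 at day 5, against 5.91, 7.01, 5.70, 6.13 and 7.37 at day 0, a rise of 1.80 ± 0.24. Tgfb1 had 7.65, 7.58, 7.40, 7.86 and 8.30 at day 5, against 8.40, 7.18, 8.37, 7.90 and 7.57 at day 0, and was not called (-0.12 ± 0.28). The activin chain Inhba rose by 1.31, and the bone-inducing ligands Bmp2 (-0.07), Bmp4 (0.10) and Bmp7 (-0.15) were not called. Mstn, the muscle growth inhibitor, fell by 1.10, but was not called without day 5 replicate 5 (-0.94) or day 0 replicate 2 (-0.73) or 5 (-0.93). Of 12 receptors 10 rose, led by Eng (1.26), Acvr1 (1.15) and Tgfbr2 (1.05). Of 13 extracellular and cytoplasmic inhibitors 3 rose and 1 fell, near or below the shares over all genes, with a median of 0.23. Fstl1 rose by 3.35 ± 0.21, while Smad7 (0.20) was not called.

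Wnt signalling takes part in bone formation. Of 18 Wnt ligands, Wnt5a rose (0.82) and Wnt4 and Wnt16 fell (-0.38 and -0.48); the other 15 were not called. Wnt4 was not called with the mean of its probe sets (-0.24), and neither Wnt4 (-0.26) nor Wnt16 (-0.34) was without the 3 arrays that stood apart. Of 16 receptors 9 rose and none fell, with Fzd2 (1.66), Fzd1 (1.45) and Ryk (1.37) the largest. Of 22 Wnt antagonists and targets 6 rose and 2 fell (4 to 7 and 2 to 3 without single arrays), with a median of 0.19. Within the names that start with H, 3 rose and 5 fell. The secreted antagonists Sfrp1 and Sfrp2 rose by 4.18 ± 0.37 and 3.79 ± 0.33, while Sost, another secreted antagonist, fell (-0.56). Sfrp1 had 9.51, 9.32, 8.73, 9.0 and 10.04 at day 5, against 5.18, 5.46, 4.94, 5.04 and 5.11 at day 0. The target gene Axin2 changed by -0.21 and was not called, but was within the names that start with H (-0.39). Growth factors of other families rose in 15 of 34 cases and fell in 4 (2 without day 0 replicate 5); those that rose included Pdgfc (2.13), the receptor Egfr (2.03), Igf1 (1.73) and the binding protein Igfbp3 (2.28).

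Bone-forming genes rose in 8 of 14 cases with none lower (1 without day 0 replicate 1), and most overlapped between the days. Ibsp, a matrix protein that nucleates mineral, had 11.34, 11.97, 11.92, 10.72 and 12.34 at day 5, against 9.71, 10.45, 8.86, 10.09 and 10.28 at day 0, and rose by 1.78 ± 0.29. Alpl, the phosphatase of mineralising cells, rose by 1.29 and the osteoblast factor Sp7 by 0.91 (adjusted p = 0.040, limma). Sp7 was not called without any one of day 5 replicates 2, 3 and 5 or day 0 replicates 1, 3 and 4 (0.71 to 0.95), nor after quantile normalization (0.76). Within the names that start with H, neither Alpl (0.89) nor Sp7 (0.499) was called. All 14 genes had their highest day 5 level in replicate 5 and 13 their lowest in replicate 4; without replicate 5, 6 of the 14 were called. Of 12 osteocyte genes 3 rose and 3 fell (2 to 3 and 3 to 4 without single arrays), with a median of -0.01. Those that fell were Sost (-0.56), Mepe (-0.75) and Fgf23 (-0.37), and Dmp1 was not called. Neither Mepe (-0.94) nor Fgf23 (-0.38) was called within the names that start with H, and Mepe (-0.49) was not without the 3 arrays that stood apart. Pdpn, of early osteocytes but also of fibroblasts and lymphatic vessels, rose by 2.99.

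Osteoclast genes gave no single direction: 6 of 17 rose and 3 fell. The resorbing protease Ctsk had 10.49, 10.31, 10.42, 9.58 and 11.06 at day 5, against 8.21, 8.502, 8.53, 8.74 and 9.29 at day 0, and rose by 1.72 ± 0.31. Car2, Itgb3 and Mmp9, the 3 that fell (-4.49, -2.10 and -0.97), are also genes of red cells, platelets and neutrophils; Mmp9 was not called without day 5 replicate 4 (-0.77), among others. With the 3 arrays that stood apart left out, 2 of the 17 were called higher and 3 lower.

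Cartilage genes had most of their highest values on 1 array. Of 22, 5 rose and 2 fell, near the shares over all genes, with a median of 0.31. Acan, the cartilage proteoglycan, had 7.78, 7.70, 7.14, 6.71 and 9.64 at day 5, against 4.58, 5.68, 5.03, 5.40 and 5.16 at day 0, a rise of 2.62 ± 0.50. Panx3, a channel of skeletal cells, rose by 2.62, the link protein Hapln1 by 2.04 and the cartilage factor Sox9 by 1.44. None of these 4 overlapped between the days. Col2a1, the collagen of cartilage, had 6.49, 6.29, 6.65, 6.09 and 8.74 at day 5, against 5.89, 6.54, 5.92, 6.45 and 6.15 at day 0, so that only replicate 5 lay above the day 0 range. It was not called (0.66 ± 0.37, adjusted p = 0.16, limma), nor was Col10a1 (0.21 ± 0.38), the collagen of hypertrophic cartilage, which had 8.39 in day 5 replicate 5 and 5.94 to 6.26 on the other 4 day 5 arrays. Of the 22 genes, 20 had their highest day 5 level in replicate 5. The median without that array was 0.12, with 5 higher and 2 lower. The 2 that fell were Chad (-1.54), a cartilage matrix protein, and Sox6 (-1.60), a factor of both cartilage and red-cell precursors.

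Genes of newly forming muscle rose beside those of bone and connective tissue, and those of mature muscle did not. Of 18 myogenic genes 13 rose and none fell, with a median of 1.25. Mymk, which fuses muscle precursors into fibres, had 9.75, 8.86, 8.45, 9.72 and 8.72 at day 5, against 5.68, 5.23, 5.83, 5.65 and 5.38 at day 0, and rose by 3.54 ± 0.29. The embryonic myosin Myh3 rose by 4.02 ± 0.35, or 16.2-fold, the factor Myog by 3.49, and the acetylcholine receptor chains Chrna1 and Chrng by 3.23 and 1.61. Pax7, of resting muscle stem cells, was not called (0.12). Day 5 replicates 1 and 4 had the highest levels of Mymk, Myog, Myh3, Chrna1 and Chrng.

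Of 20 genes of mature muscle fibres, 12 fell and none rose, with a median of -0.77. Only Myoz1 (-1.56) and Pvalb (-0.99) did not overlap between the days. Myh4, a fast myosin, had 10.32, 9.97, 9.65, 11.05 and 9.63 at day 5, against 10.48, 11.53, 10.24, 11.16 and 11.54 at day 0, highest in day 0 replicates 2 and 5. It fell by 0.87 and was not called without any one of day 5 replicates 2, 3 and 5 or day 0 replicates 2, 4 and 5 (-0.73 to -0.83). The count of falls in the list was 5, 6 and 7 without day 5 replicates 2, 3 and 5, 3 without day 0 replicate 2 or 5, 7 without day 0 replicate 4, 14 without day 0 replicate 1, and 1 without all 3 arrays that stood apart, where Myoz1 (-1.08) lost its call. Within the names that start with H it was 17, with a median of -1.13. At day 0 these names keep only replicates 4 and 5, with means of this list of 10.30 and 10.80. They leave out replicates 1, 2 and 3, with 9.57, 10.62 and 9.65. The amount of muscle taken with each bone was not measured.

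The promoters of Chrna1 and Chrng are shown because each holds 2 copies of CAGCTG (in capitals), the E-box motif of muscle factors such as Myog. Chrna1 lies at chr2:73580289-73580588 on the minus strand and Chrng at chr1:87205561-87205860 on the plus strand, both RefSeq GRCm38.p6.
Chrna1: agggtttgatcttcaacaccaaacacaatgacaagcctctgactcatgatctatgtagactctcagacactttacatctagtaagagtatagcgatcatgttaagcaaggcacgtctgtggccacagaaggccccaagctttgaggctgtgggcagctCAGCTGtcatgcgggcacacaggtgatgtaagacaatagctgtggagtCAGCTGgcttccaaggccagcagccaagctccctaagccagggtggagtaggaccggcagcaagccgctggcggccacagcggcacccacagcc
Chrng: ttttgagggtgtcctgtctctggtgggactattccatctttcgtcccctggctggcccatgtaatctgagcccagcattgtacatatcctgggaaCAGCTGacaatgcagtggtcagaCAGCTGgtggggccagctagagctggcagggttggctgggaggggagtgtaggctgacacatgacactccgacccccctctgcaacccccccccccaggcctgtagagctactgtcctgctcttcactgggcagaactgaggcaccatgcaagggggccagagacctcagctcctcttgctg
Of 12 myogenic genes with a window, 4 (33.3%) held CAGCTG, against 18.4% of all tested genes with a window; the share among the chemokine ligands and IL-6 family members was also 33.3% (12 of 36). In the 6 promoters printed here, no base belonged to matches of 2 of the 3 motifs. The windows of Kel and Chrna1 also held TGANTCA and that of C3ar1 also held AGATAA and its reverse, not in capitals.

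Vessel genes rose in 18 of 30 cases and fell in 1. Vegfd had 7.997, 8.60, 9.02, 8.53 and 8.27 at day 5, against 5.76, 5.25, 5.54, 5.40 and 6.03 at day 0, and rose by 2.89 ± 0.22. Vegfa, the main growth factor of blood vessels, had 7.28, 7.63, 7.64, 7.38 and 7.46 at day 5, against 7.31, 7.64, 7.36, 7.52 and 8.09 at day 0, and was not called (-0.10 ± 0.16). The junction protein Cdh5 rose by 1.46 and Pecam1 by 0.80, and the receptor Kdr was not called (0.23). The oxygen-sensing factor Hif1a rose by 2.37 ± 0.23, while of 23 genes of hypoxia and glycolysis 8 rose and 3 fell, and the median was 0.08. Other members of this list that rose included Adm (1.37) and Slc2a1 (1.21). The glucose carrier Slc2a3 fell by 2.40.

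Cell-cycle genes fell more often than they rose, 11 against 4 of 22, with a median of -0.48. Mki67, present in all dividing cells, had 8.89, 8.999, 9.17, 8.86 and 8.78 at day 5, against 10.70, 10.59, 10.83, 10.92 and 10.45 at day 0, a fall of 1.76 ± 0.28. Ccnd1, the D-type cyclin of connective-tissue cells, had 8.24, 8.89, 8.66, 9.03 and 8.95 at day 5, against 7.46, 6.59, 7.22, 7.16 and 7.12 at day 0, and rose by 1.64 ± 0.23, while Ccnd3, of blood cells, fell by 1.19. The integrins divided likewise, 9 of 26 higher and 11 lower: the fibronectin receptor chains Itga5 and Itgav rose by 2.34 and 1.49, and Itga4 and Itgal of white cells fell by 1.77 and 1.35. Of 21 annexins and S100 proteins 11 rose and 4 fell, and of 12 nerve genes 2 rose and 1 fell (2 without day 5 replicate 3 or 4 or day 0 replicate 1). Of 9 adipocyte genes 2 rose and 1 fell, and without single arrays 0 to 3 rose (0 without day 5 replicate 1) and 0 to 1 fell.

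**Figure D3:**
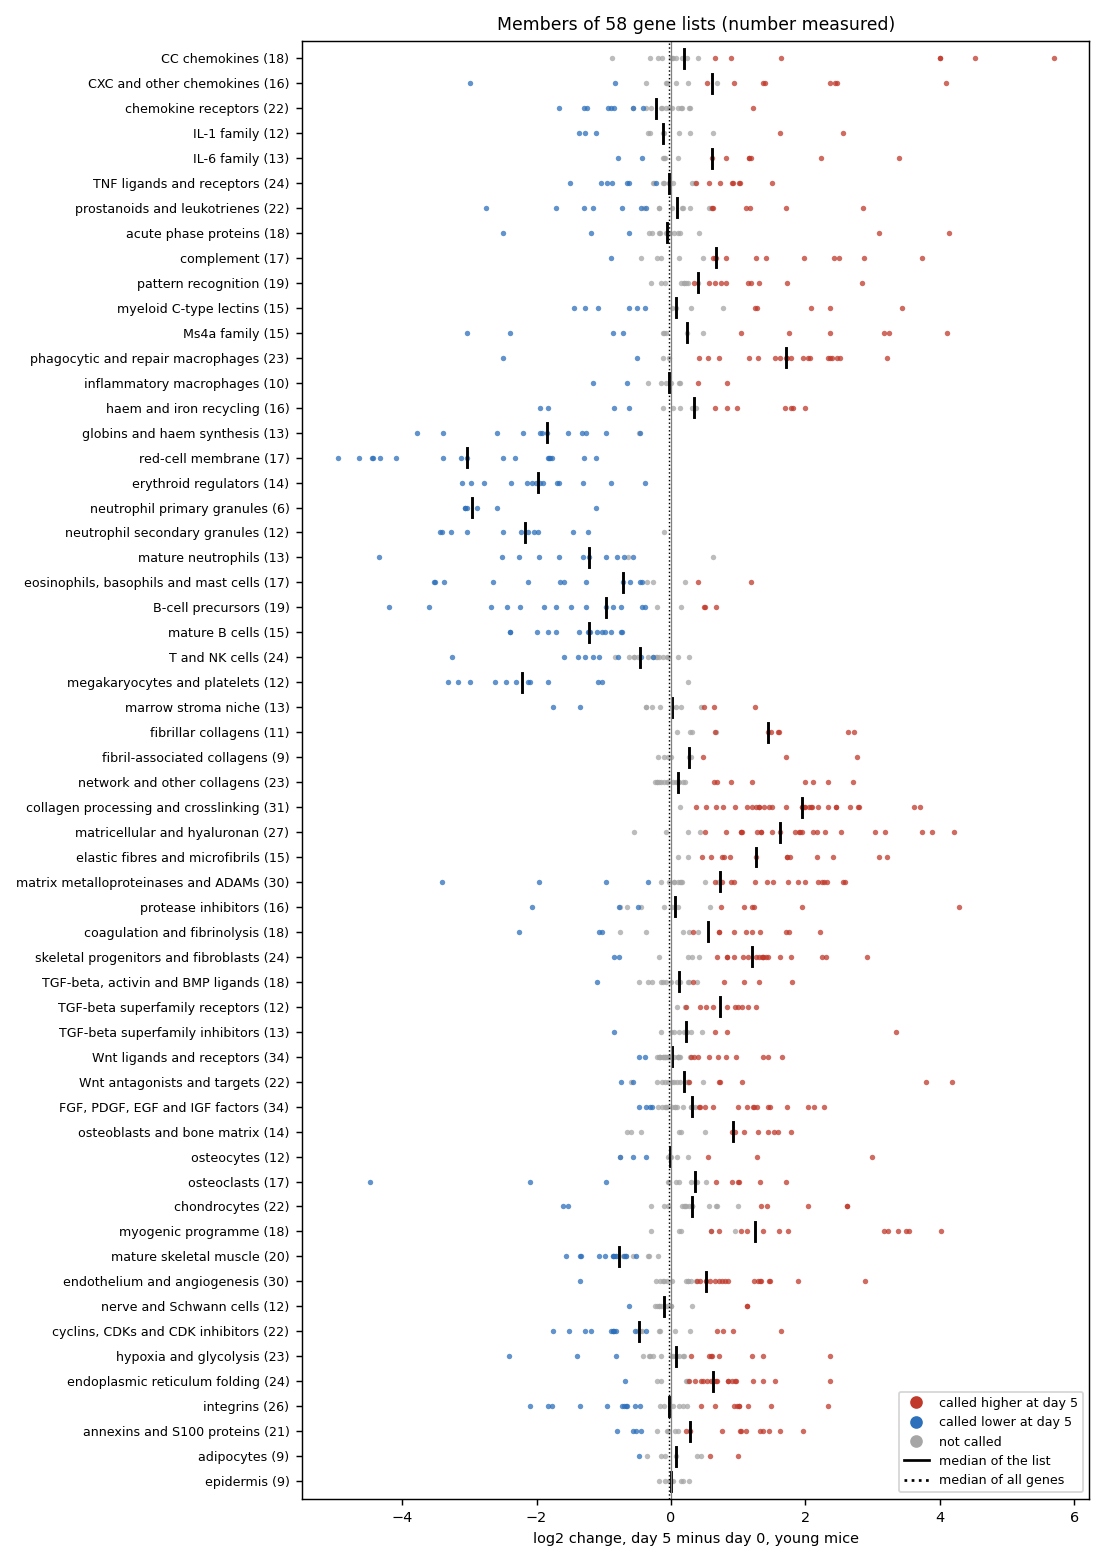
Log2 change from day 0 to day 5 in young mice (positive is higher at day 5) of each measured member of 58 gene lists, one list per row with the number measured. Red points were called higher, blue points lower and grey points not called; black ticks mark list medians, which run from -3.04 for the red-cell membrane to 1.95 for collagen processing, and the dotted line marks the median of all genes, -0.03.

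The 15 genes with the largest rises and the 15 with the largest falls among named, called genes without overlap all had an adjusted p of at most 2.1e-06 (limma). Beyond those given above, the rises held Mest (3.99), an imprinted gene of embryonic mesoderm, the secreted proteins C1qtnf3 (3.90) and Lrrc17 (3.85), and the falls held the protease Ctse (-4.48) and Nxpe2 (-3.96). C1qtnf3 had 8.90, 8.77, 8.08, 8.34 and 10.47 at day 5, against 5.03, 5.48, 4.26, 5.20 and 5.09 at day 0, with replicate 5 highest. Ctse had 7.001, 6.09, 6.70, 7.11 and 6.15 at day 5, against 11.30, 10.62, 11.35, 11.35 and 10.85 at day 0.

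The same step in old mice gave 6790 called genes (34.1%). Whether the step differed with age was tested as the young change minus the old change for every gene. At an adjusted p under 0.05, 0 genes passed (0.00%, limma, smallest adjusted p = 0.33). Of 19938 genes, 1562 had an unadjusted p under 0.05 (limma), a larger share than the 0.05 or so that chance gives when none differs. Genes are not independent of each other, and the source of this excess was not tested. A contrast without moderation also gave 0 genes after adjustment. Without old day 0 replicate 4, 1 gene passed, and with array weights 2 did. All 30 genes were called in old mice in the same direction; they were ranked by their change in young mice, so that a larger value there is part of the choice. Ccl8 rose by 5.69 ± 0.33 in young mice and by 3.63 ± 0.32 in old mice, and the difference, 2.06 ± 0.46, was not called (adjusted p = 0.33). Rhag fell by 4.96 ± 0.67 in young mice and by 3.27 ± 0.64 in old mice, a difference of -1.69 ± 0.93 (adjusted p = 0.68). Timp1 rose by 4.28 ± 0.29 in young mice and 4.03 ± 0.27 in old mice, a difference of 0.25 ± 0.40. The median SE of this difference over all genes was 0.162, against 0.117 for the young change.

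**Figure D4:**
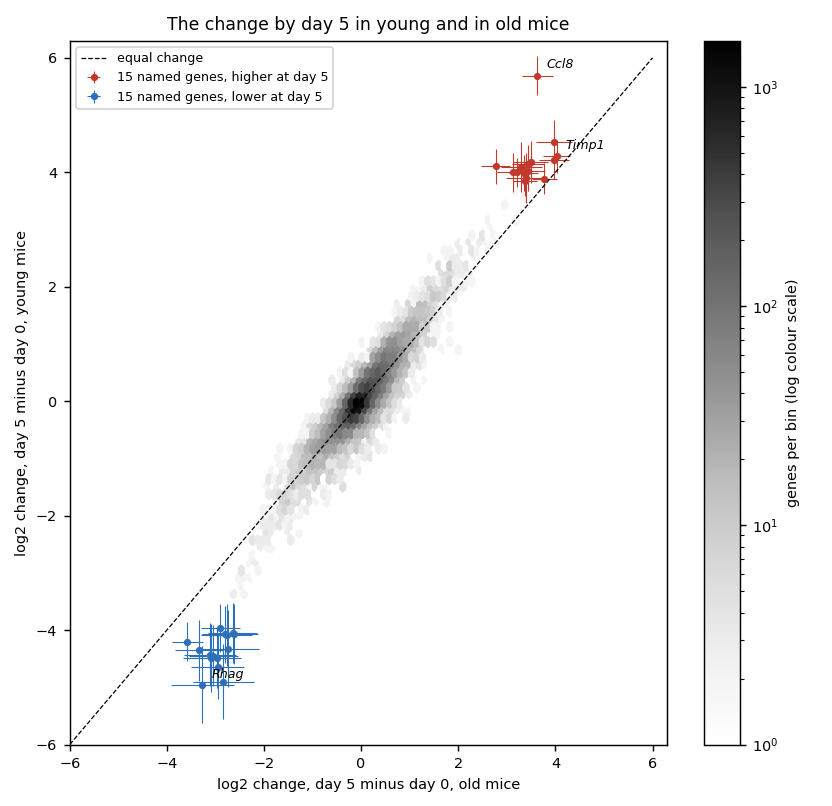
Log2 change from day 0 to day 5 of each gene in young mice (vertical) and in old mice (horizontal); grey bins count all 19938 genes, and points with SE bars are the 15 named genes of each direction. The points lie beyond the line of equal change on the young side, the side on which they were ranked; Ccl8 is at 5.69 in young mice and 3.63 in old mice, and 0 genes passed the test of the difference.

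Later days show how long the early levels lasted. In young mice Ccl8 had means of 4.39 ± 0.65, 10.08 ± 0.24, 8.84 ± 0.76 and 5.81 ± 0.34 at days 0, 5, 10 and 20 (SD, n = 5 each). Of the 15 genes with the largest rises, 13 had a lower mean at day 10 than at day 5, and all 15 had a lower mean at day 20. Lox stayed within 0.5 of its day 5 mean, with 10.56 at day 10 and 10.23 at day 20. Acan was at 5.17, 7.79, 10.29 and 7.42 on the 4 days. Of the 15 genes with the largest falls, all had a higher mean at day 20 than at day 5, and none had returned to its day 0 mean: Rhag was at 9.61, 4.66, 5.43 and 7.48. Both sets were ranked by their change from day 0 to day 5, so that later means between these levels are favoured by the choice. Differences between these later days were not tested here.

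**Figure D5:**
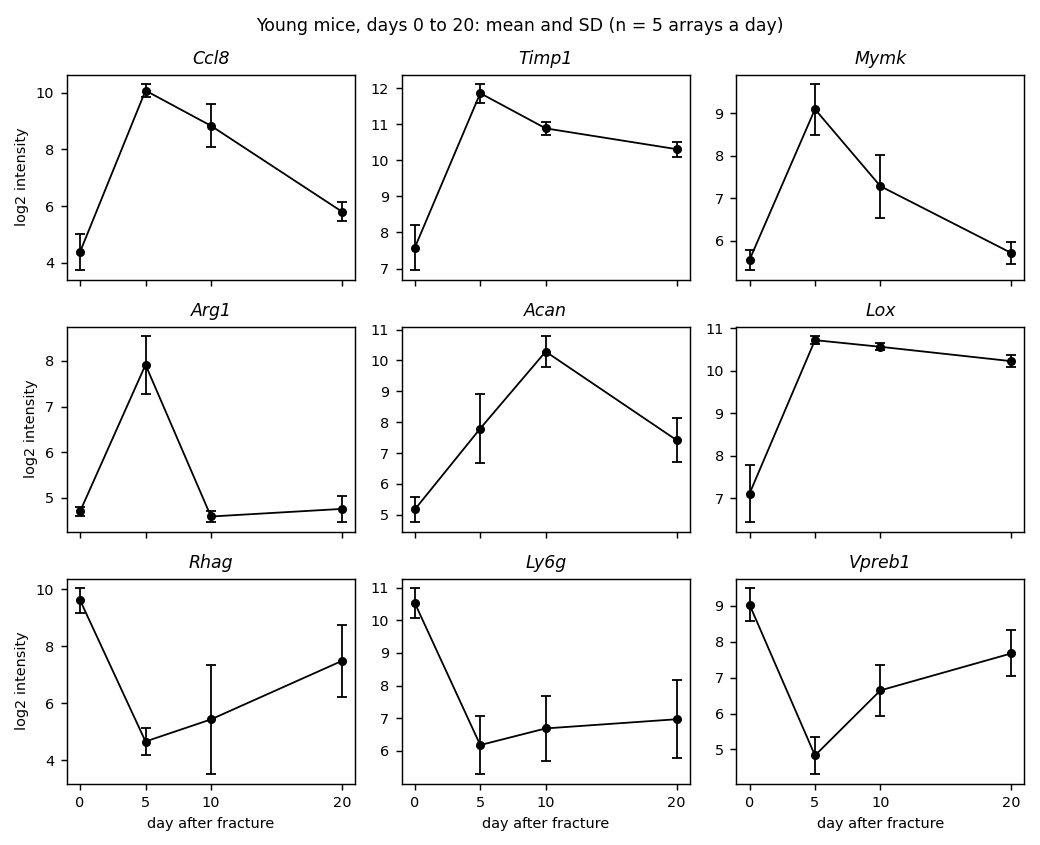
Mean log2 intensity and SD of 9 genes in young mice at days 0, 5, 10 and 20 after fracture (n = 5 arrays a day). Ccl8, Timp1, Mymk and Arg1 have their highest mean at day 5, Acan has it at day 10, and Rhag, Ly6g and Vpreb1 have their highest mean at day 0.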

How the data were processed

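RNA of 41 samples in 8 groups of age and day was read on 1-colour arrays. The deposited values are log2 intensities per probe set; the authors' table also holds a p-value and a ratio for each comparison, and the ratio deposited by the authors differed from the group means by at most 5.86e-05 on the log2 scale. Partek was used, per the submitters' processing notes; the sources used here give neither its version nor the normalization method and annotation build. The deposited scale was kept. Array medians ran from 5.37 to 5.48, and the number of arrays, not a read depth, limits the precision.

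Of 28815 probe sets, 21782 had 1 gene in GEO's platform annotation, 1598 had several and 5435 none. Probe sets with 1 gene gave 19938 genes, and 999 genes had several probe sets, of which the brightest was kept. Probe sets of near-identical gene copies can share signal.

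limma 3.58.1 (R 4.3.3) was fitted to group means over all 41 arrays (33 residual degrees of freedom), with Benjamini-Hochberg adjustment over all genes and a threshold of 0.05. An error after ± is an SE for a change and an SD for a level. The p-values measure the spread between arrays of different mice, as the labels number biological replicates. On simulated data of this comparison, over 19938 genes with 200 changed, 61.2% of shifts of 0.5, 97.0% of shifts of 1 and 100% of shifts of 2 were recovered, and 4.97% of calls were false. The simulation changed far fewer genes than the 7229 called here. It drew independent normal noise, without arrays that stand apart, so its rates need not hold for these data.

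The 58 gene lists hold 1066 members, of which 996 were measured. Members and lists were chosen with earlier results of these data known, so they are descriptions and carry no test of their own. The text names the 15 called genes without overlap with the largest change in each direction, predicted genes left out, and members of lists given with their counts; exceptions are stated. Replicate numbers only name mice: the deviations of same-numbered arrays of both days correlated at -0.110 to 0.101. Alternatives were other scalings, filters, variance models, blocks, and arrays left out singly or, chosen after seeing the data, 3 together. Promoter and miRNA sequences are from RefSeq GRCm38.p6.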

Additional observations from a re-analysis of the deposited data

Results flagged for a closer look

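A sample far from the others of its group, by Dixon's criterion, was found in 30 of 476 groups of 5 arrays for the genes named above (6.3%), and in 13 of 116 for the list means. Chance alone gives about 5%, and genes of a list are not independent. Most of these values were those of young day 5 replicate 5.

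Day 5 replicate 5 was lowest of its day for 12 of 23 genes of phagocytic and repair macrophages and highest for 3, and lowest for 9 of 18 CC chemokines and highest for 2. Among genes of white cells and their attractants, its levels that lay apart below the other 4 were 8.39 for Ccl2, 5.84 for Cxcl1, 8.25 for Ccr2, 8.69 for Csf1r, 6.03 for Cd163, 7.21 for Tlr1, 7.24 for Ms4a4a, 9.06 for Mrc1 and 5.91 for Tnfrsf11a. Its means were also lowest for the CC chemokines (6.75), the pattern receptors (6.62) and the Ms4a family (6.66).

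The same array was highest of its day for 20 of 22 chondrocyte genes. Levels that lay apart above the other 4 were 8.74 for Col2a1, 8.39 for Col10a1, 9.81 for Col6a1, 9.43 for Col6a2, 10.30 for Timp2 and 7.98 for the Wnt receptor Fzd2. The plasma cell gene Jchain (5.89) and the neutrophil protease Mmp25 (5.46) were highest there too. Its list means were highest for chondrocytes (7.16), fibril-associated collagens (7.003), network and other collagens (6.54), elastic fibres (8.28), ligands of the TGF-beta superfamily (6.23), Wnt ligands and receptors (5.66), other growth factors (6.74) and neutrophil secondary granules (8.68).

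Other arrays stood apart for single genes. At day 5, Tnf was at 6.01 in replicate 1, Hspa5 at 10.63 in replicate 2, Rag1 at 4.54 and Ccnd3 at 7.23 in replicate 3, and S100a9 at 11.48 in replicate 4. At day 0, Hif1a was at 8.20 in replicate 2, Ccl1 at 4.09 and Nos2 at 4.68 in replicate 3, and Vpreb1 at 9.84 and Mcpt4 at 5.13 in replicate 4. Day 0 replicate 5 had 3.29 for Il6, 6.15 for Sox4 and 10.23 for Mmp8. The osteoclast mean was 6.69 in day 0 replicate 2 and the endothelial mean 6.31 in day 0 replicate 5.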

How the results depend on the processing

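Between 5503 and 7715 genes were called under every alternative except the names that start with H (5160) and a test against a change of 1.5-fold (1405, with 896 higher and 509 lower). The share of higher calls moved with the scaling: 3987 higher and 3242 lower as reported, 3543 and 3613 after quantile normalization, 3571 and 4144 after median centring. Leaving out single arrays gave 6340 to 7347 called genes, 4767 to 5514 genes without overlap and 0 to 1 for the difference between the ages, for which array weights gave 2. With fewer arrays more genes lie apart by construction: 8975 had no overlap within the names that start with H and 7603 with the 3 arrays left out that were chosen after seeing the data. The replicate number as a block gave 7141, 1 of 5 same-numbered pairs correlated above 0.1, and Mmp9 was the only named call that this block lost. The block for names that start with a letter or with a digit lost Ebf1, Mmp9, Dpp4 and Sp7 (6250 called in all). Fitting only the groups compared lost Tnf, Cma1, Mmp9, Mstn, Sp7 and Myh4 and gained Cd8a.

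Some genes that were not called had no settled sign, and the cause was not tested. With array weights Dmp1 was at 0.12, Bmp2 at 0.012 and Bmp4 at -0.016. Within the names that start with H, Il1b was at 0.091, P3h2 at -0.10, Bmp4 at -0.37 and Col10a1 at -0.26. With the 3 arrays left out, Dmp1 was at 0.080, P3h2 at -0.046, Bmp2 at 0.072, Bmp4 at -0.095, Col10a1 at -0.24 and Vegfa at 0.087. Without single arrays Dmp1 ran from -0.24 to 0.40, Bmp2 from -0.21 to 0.082, Bmp4 from -0.064 to 0.21, P3h2 from -0.023 to 0.25, Il1b from -0.56 to 0.050, Col10a1 from -0.25 to 0.36, Vegfa from -0.17 to 0.021 and Tgfb1 from -0.30 to 0.0045. The array carries no detection call, so low levels are limited by a background that was not measured here.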

Other observations

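The test of young change minus old change called no gene, and the macrophage genes among those with its smallest p-values are given here as values, chosen after they were seen. Ms4a7 rose by 3.25 ± 0.24 in young mice and by 1.98 ± 0.23 in old mice, a difference of 1.27 ± 0.33 (SE). Adgre1 rose by 2.06 ± 0.21 in young mice and by 0.83 ± 0.20 in old mice, a difference of 1.23 ± 0.29. Aif1, another gene of macrophages, rose by 2.06 ± 0.19 in young mice and by 0.87 ± 0.18 in old mice, a difference of 1.19 ± 0.26. All 3 had an adjusted p of 0.33 for the difference (limma).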
